A study of Homo sapiens with 20 samples.

Results

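The liver secretes most of the proteins that fill blood plasma. Some of them are acute phase proteins, whose blood level rises or falls with inflammation, and others are carriers that hold hormones, iron, lipids or minerals in solution. Their genes are read in hepatocytes under liver-enriched transcription factors such as HNF1, HNF4, FOXA and C/EBP proteins, and the inflammatory part is driven by interleukin-6 through STAT3 and C/EBP. Liver and pancreas arise from neighbouring foregut endoderm, and both *TTR* and *SERPINA1* are also read in islet cells. In all, 9 genes of this kind were followed, out of 60624 listed in the hILO files and 60623 in the PP files: *CRP*, *SERPINA1*, *SERPINA3*, *AMBP*, *AHSG*, *TF*, *TTR*, *HP* and *ITIH2*. They were found by the Ensembl identifier of each symbol. They had been chosen by their WT and A5-KO levels in these same libraries, so every WT against A5-KO value of a member is given as a description, without a *p*-value. The change of a member within a genotype during actinomycin D treatment was not itself a criterion of the choice and was tested. The same PP libraries entered both, so the *p*-values of these changes are not fully independent of the choice.

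RNA-seq came from 20 libraries of the human embryonic stem cell line MEL1, which in the methods of the study carries GFP at 1 allele of the insulin gene. WT cells were compared with A5-KO cells, in which the m6A demethylase gene *ALKBH5* had been disrupted with CRISPR-Cpf1 in its first exon; the labels name 1 knockout line, derived from picked colonies, so its clonal traits and the knockout cannot be told apart. Cells were taken at 2 stages. Pancreatic progenitors (PPs) had passed through activin A and CHIR99021, KGF, retinoic acid with LDN-193189 and GDC-0449, and EGF, and were then given actinomycin D (Act D), which blocks transcription, at 1 μg per ml for 0, 1, 2 or 3 h, with 2 libraries for each genotype and time. Islet-like organoids (hILOs) were made from aggregates of such cells in a medium with zinc sulfate, heparin, T3, LDN-193189 and compound E. The methods of the study add a later medium without LDN-193189 and compound E but with N-acetyl cysteine and trolox, which the labels do not list. hILOs had 2 libraries for each genotype. Both genotypes shared all media. The study calls the replicates of its decay RNA-seq biological, but the labels do not tie the 2 libraries of a group to separate differentiations, and *p*-values measure the spread between these libraries.

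hILO values are TPM, in which reads are divided by gene length and library total, and PP values are CPM, reads scaled to a fixed library total without a length term. The PP libraries held 30516384 to 35206514 reads, whereas TPM keeps no depth. *ALKBH5* fell in A5-KO cells by 4.09 on the log2 scale in hILOs (limma adjusted *p* = 0.0021) and by 3.01 in PPs at 0 h (limma adjusted *p* = 1.46e-06). hILOs of both genotypes held islet markers: the 4 beta cell markers summed to 12984 to 13041 TPM in WT, against 7613 to 7616 TPM in A5-KO, and the 4 alpha cell markers to 2304 to 2382 and 1382 to 1384 TPM. The 12 hepatocyte markers summed to 11952 to 12302 TPM in WT hILOs and 15945 to 16343 TPM in A5-KO hILOs, with at least 10 of the 12 at 1 TPM or more in every library and none at 0. In PPs at 0 h the 5 progenitor markers summed to 699 to 908 CPM in WT and 626 to 720.4 CPM in A5-KO, with *PTF1A* under 1 CPM in every library and the other 4 above it, and the 12 hepatocyte markers summed to 885 to 889 CPM in WT and 1737 to 1769 CPM in A5-KO. Most of the hepatocyte sum in PPs was *AFP*, with 0 h means of 557 (WT) and 1319 CPM (A5-KO). The hepatocyte markers were also compared singly, at a limma adjusted *p* under 0.05 and a change over 1.5-fold. In PPs at 0 h 4 of 8 tested were higher in A5-KO and 0 lower. In hILOs 4 of 11 were higher and 2 lower. Of the islet markers, 1 of 3 tested beta cell markers and 2 of 4 alpha cell markers were lower in A5-KO hILOs, and 0 higher. The A5-KO minus WT difference was above 0 for 1 of these 3 and for 2 of these 4, so the sums do not stand for every marker. The part of all these marker lists in the values below was not tested. In bulk RNA more cells of a type and more RNA per cell cannot be told apart.

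In hILOs the 9 mRNAs together took 1.38% of the TPM of each WT library and 2.80% and 2.83% of the A5-KO libraries. Most of that was *TTR*, which encodes transthyretin, the carrier of thyroxine and of the retinol-binding protein. *TTR* (ENSG00000118271, chr18:31557009-31598833, plus strand, GRCh38) was at 7527 and 7550 TPM in WT, against 18674 and 18749 TPM in A5-KO. Both A5-KO libraries lay far above both WT libraries, and the ratio of the means was 2.48. *TTR* was the gene with the 3rd highest TPM in both WT libraries and the highest of all genes in both A5-KO libraries. Without *TTR* the other 8 members summed to 5175 to 5272 TPM in WT, against 6343 to 6419 TPM in A5-KO.

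*CRP*, C-reactive protein, is the classical marker of inflammation and binds phosphocholine on damaged cells and bacteria. *CRP* (ENSG00000132693, chr1:159712289-159714589, minus strand) was at 0.29 and 0.41 TPM in WT, against 17.4 and 14.5 TPM in A5-KO. It was close to absent in WT and clearly present in A5-KO, where its rank among all genes was 7126 and 7716. *TF*, which encodes the plasma iron carrier transferrin (ENSG00000091513, chr3:133746040-133796641, plus strand), stood at 1.39 and 1.2 TPM in WT, against 8.59 and 8.64 TPM in A5-KO. Both members were low in absolute terms even where they were high. On the same strand, *TF* shares 122 of its 26038 exon bases with *SRPRB*, which stood at 59.9 to 79.8 TPM over the hILO libraries. It shares 191 with the long noncoding gene ENSG00000291042, for which no value was listed. The part of shared reads in the *TF* values was not tested.

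*AMBP* and *ITIH2* encode parts of the same plasma complex. *AMBP* gives bikunin, the protease-inhibiting light chain of the inter-alpha-trypsin inhibitor, and also the heme-binding carrier alpha-1-microglobulin, and *ITIH2* gives a heavy chain that is transferred to hyaluronan. *AMBP* (ENSG00000106927, chr9:114060127-114078328, minus strand) was at 3824 and 3733 TPM in WT, against 4914 and 4784 TPM in A5-KO. *ITIH2* (ENSG00000151655, chr10:7703316-7749520, plus strand) was at 42.0 and 40.0 TPM in WT, against 39.5 and 37.4 TPM in A5-KO. The light chain mRNA was thus higher in both A5-KO libraries, by a ratio of 1.28, while the heavy chain mRNA lay just below WT.

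*SERPINA1* and *SERPINA3* encode the protease inhibitors alpha-1-antitrypsin and alpha-1-antichymotrypsin, which act on neutrophil elastase and cathepsin G. *SERPINA1* (ENSG00000197249, chr14:94376747-94390693, minus strand) was at 1178 and 1167 TPM in WT, against 1293 and 1345 TPM in A5-KO. *SERPINA3* (ENSG00000196136, chr14:94612384-94624055, plus strand) was at 214 and 219 TPM in WT, against 141 and 146 TPM in A5-KO. The 2 inhibitors, which lie on the same arm of chromosome 14, were displaced in opposite directions. *SERPINA3* shares 1585 of its 5000 exon bases with the readthrough gene ENSG00000273259, so reads may have been split between them. That gene stood at 118 and 122 TPM in WT, against 78.3 and 82.2 TPM in A5-KO, and the sum of both was 333 and 341 TPM in WT, against 219 and 228 TPM in A5-KO.

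*AHSG*, fetuin-A, binds calcium phosphate in plasma and is a negative acute phase protein. *AHSG* (ENSG00000145192, chr3:186613060-186621318, plus strand) was at 11.7 and 12.8 TPM in WT, against 6.38 and 7.25 TPM in A5-KO. *HP*, haptoglobin, binds free hemoglobin (ENSG00000257017, chr16:72054505-72061055, plus strand). It was at 0.14 and 0.070 TPM in WT, against 0.017 and 0.37 TPM in A5-KO, below the mean of 1 TPM required for the fit, and its near-identical neighbour *HPR* was at 0 to 0.27 TPM. The order of levels from *TTR* through *AMBP*, *SERPINA1*, *SERPINA3* and *ITIH2* was the same in both genotypes, with no overlap between neighbours. The lower members changed places: *AHSG*, *TF* and *CRP* followed in that order in WT, and *CRP*, *TF* and *AHSG* in A5-KO.

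**Figure D1:**
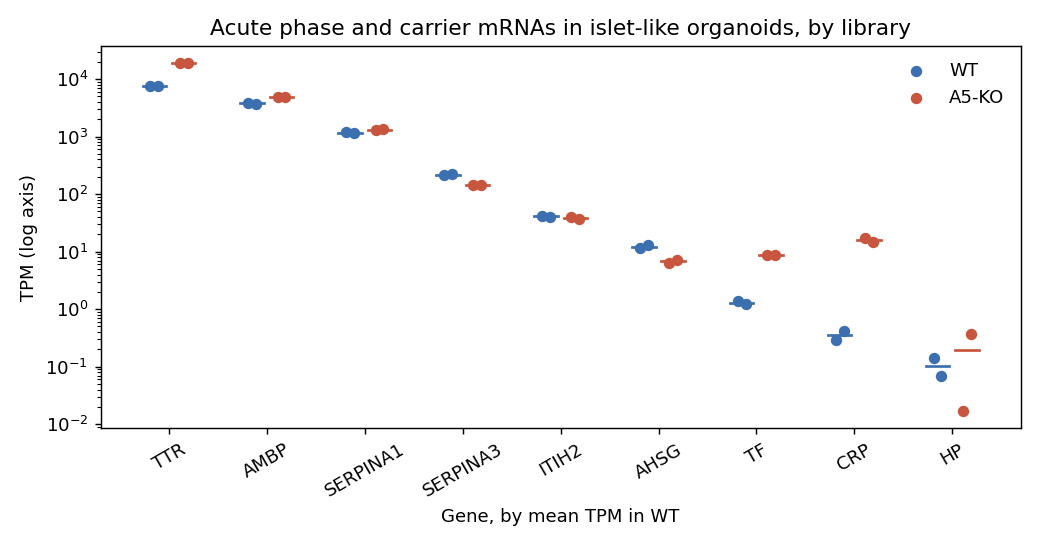
Level of each of the 9 mRNAs in hILOs, as TPM on a log axis, with 1 point per library (2 WT, 2 A5-KO) and a line at the mean of each genotype. The points of WT and A5-KO are farthest apart for *CRP* (0.29 and 0.41 against 17.4 and 14.5 TPM), and the A5-KO points of *HP* lie on both sides of the WT points.

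On the log2(TPM + 1) scale, which understates changes of low mRNAs, the difference of A5-KO from WT was 3.64 for *CRP* (standard error 0.17), 2.07 for *TF* (0.15) and 1.31 for *TTR* (0.02). It was 0.36 for *AMBP*, 0.17 for *SERPINA1*, -0.09 for *ITIH2*, -0.59 for *SERPINA3* and -0.76 for *AHSG*. A gene was called at an adjusted *p* under 0.05 and a change over 1.5-fold in a limma fit across all 17300 genes tested. Of the 8 members in that fit, 3 were called higher in A5-KO (*CRP*, *TF* and *TTR*) and 2 lower (*SERPINA3* and *AHSG*), where 2.7% of all genes were called higher and 4.09% lower. The median of the 8 was 0.26, and that of all genes -0.06. The WT and A5-KO libraries did not overlap for any of the 8, with 5 above and 3 below, but 24.3% of all genes lay above in both A5-KO libraries and 37.1% below. The calls of *CRP* and *TTR* held in all 11 alternative fits, those of *SERPINA3* and *AHSG* in 5 of 11 each and that of *TF* in 6 of 10. The call of *TF* was lost whenever any 1 of the 4 libraries was left out, that of *AHSG* likewise, and that of *SERPINA3* without either WT library or without A5-KO replicate 1. With median-of-ratios scaling the value of *SERPINA3* was -0.53, and with quantile normalization it was not called either.

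The start of these genes was searched for letters that the factors named above are known to bind. RefSeq promoter windows (GRCh38.p14) were matched for 6 of the 9 members, *CRP*, *SERPINA1*, *SERPINA3*, *AMBP*, *AHSG* and *TF*, in 8 entries, and the 250 bases before each start were read on both strands. A C/EBP motif (TTNNGNAA) was present in 5 of the 8 entries, with 2 matches in *CRP* and 1 each in *SERPINA1*, *SERPINA3*, *AHSG* and *TF*, and in 33.2% of 35116 promoters. Other letters were in 1 entry each: an HNF1 core (GTTAAT) in 1 entry of *SERPINA1* against 6.23% of all promoters, an HNF4 site (CAAAGTCCA) in *AHSG* against 0.325%, and a TATA box (TATAAA) in *CRP* against 10.7%. With 8 entries, 1 match is too few to set against such shares. The hexamer CTGGGA was in 1 entry (28.7% of all), and the STAT3 site (TTCNNNGAA, 6.57%) and the FOXA site (TGTTTAC, 2.98%) were in none. No 2 of the matches in the members overlapped. The windows below, 30 bases each and written 5′ to 3′ along the gene's strand, show where members called higher (*CRP*), called lower (*SERPINA3*, *AHSG*) and not called (*SERPINA1*) carry such letters, with the match in capitals.
*CRP* TATA box, chr1:159714601-159714630: tactgctttggaTATAAAtccaggcaggag
*CRP* C/EBP, chr1:159714708-159714737: tgatttctctgTTCTGAAAtaattttgctt
*CRP* C/EBP on the other strand, chr1:159714683-159714712: tgcttcccctcTTCCCGAAgctctgacacc
*SERPINA1* HNF1 core, chr14:94388661-94388690: ggggtgaccttgGTTAATattcaccagcag
*SERPINA3* C/EBP on the other strand, chr14:94612317-94612346: ttgtcctggcaTTTCCCAAgcagggggagg
*AHSG* C/EBP, chr3:186612990-186613019: atcctgtatccTTATGCAAttcttccggca
*AHSG* HNF4 on the other strand, chr3:186612871-186612900: cacagcagcaTGGACTTTGgcagatttctt
A match is a description of letters, and members called higher and lower both held the C/EBP letters.

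In PPs the same genes split into 3 levels. *AMBP* and *SERPINA1* were abundant, *TTR*, *ITIH2* and *TF* were measurable, and *CRP*, *HP*, *AHSG* and *SERPINA3* were at or near 0. *CRP* had 0 reads in all 8 WT libraries, which allows at most 0.011 CPM over the 8 (3 reads, counting error only), and 4 reads in all in A5-KO, 2 in each library at 1 h. *HP* had 2 and 4 reads in all in WT and A5-KO, *AHSG* 14 and 41, and *SERPINA3* 101 and 73. These 4 were below a mean of 1 CPM and were not tested at this stage, and *CRP* was at or near 0 in PPs of both genotypes. *CFB*, another acute phase gene, was listed at 0 in all 16 PP libraries but averaged 219 and 234 TPM in hILOs of WT and A5-KO, and the part of the read counting in such zeros was not tested.

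*TTR* stood apart from the other members in PPs. At 0 h it was at 6.60 and 7.40 CPM in WT and at 35.1 and 35.7 CPM in A5-KO, so both A5-KO libraries lay far above WT, with a ratio of 5.06. *ITIH2* was at 2.04 and 2.35 CPM in WT and 4.48 and 4.51 CPM in A5-KO, from 71 to 154 reads. The ratio of the means was 2.05, although *ITIH2* lay slightly below WT in hILOs. *TF* was at 1.75 and 1.80 CPM in WT and 2.07 and 1.67 CPM in A5-KO. Its A5-KO libraries lay on both sides of WT, unlike in hILOs.

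The 2 abundant members were lower in A5-KO PPs at 0 h. *SERPINA1* was at 311 and 371 CPM in WT and 200.3 and 268 CPM in A5-KO, and *AMBP* was at 565 and 606 CPM in WT and 479 and 554 CPM in A5-KO. Both were higher in A5-KO in hILOs. Divided by the length of the canonical transcript, the level of *AMBP* at 0 h was 464 ± 23.0 CPM per kb in WT (mean ± s.d., *n* = 2), that of *SERPINA1* 113 ± 14.1 and that of *TTR* 11.4 ± 0.92. In A5-KO the order was the same, with 409 ± 41.8, 77.9 ± 16 and 57.5 ± 0.68 CPM per kb, so *TTR* ranked behind both, whereas in hILOs it ranked ahead of both. *TF* was left out of this scale because its annotated canonical transcript is 20166 bases long.

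The A5-KO minus WT difference at 0 h, on the log2(CPM + 1) scale, was 2.19 for *TTR* (standard error 0.13), 0.78 for *ITIH2* (0.18), 0.05 for *TF* (0.19), -0.18 for *AMBP* (0.08) and -0.55 for *SERPINA1* (0.13). Of the 5 members tested, 2 were called higher in A5-KO (*TTR* and *ITIH2*) and none lower, where 1.57% of 13911 genes were called higher and 1.13% lower in the limma fit. The median of the 5 was 0.05 and that of all genes 0.03. *TTR* and *ITIH2* lay above WT in both A5-KO libraries, as did 29% of all genes, and *SERPINA1* and *AMBP* lay below, as did 20.8%. *TTR* was called in all 14 alternative fits. *ITIH2* was called in 8 of 13, with the call lost when any 1 of the 4 libraries was left out and with edgeR on the reads recovered from the CPM. *SERPINA1* was called lower with median-of-ratios scaling and without WT replicate 1 or A5-KO replicate 2.

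During Act D the *TTR* difference stayed large. At 1 h *TTR* was at 8.26 and 6.54 CPM in WT and 38.6 and 45.7 CPM in A5-KO, and at 2 h at 7.83 and 7.90 CPM and at 42.4 and 39.9 CPM. At 3 h it was at 15.2 and 22.8 CPM in WT and 48.7 and 47.8 CPM in A5-KO. The WT libraries of 3 h were above all 6 earlier WT libraries but still below every A5-KO library. The log2 difference was 2.36, 2.25 and 1.33 at 1, 2 and 3 h, and *TTR* was the only 1 of the 5 members called at each of these times. Genes called higher in A5-KO were 3.19%, 1.08% and 1.07% of all genes tested at 1, 2 and 3 h, and those called lower 1.19%, 0.262% and 16.6%.

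*ITIH2* was at 2.15 to 3.76 CPM in the 6 WT libraries of 1 to 3 h and at 4.12 to 5.08 CPM in the 6 of A5-KO, so A5-KO stayed above WT at every time, with log2 differences of 0.51, 0.51 and 0.39. *TF* ranged from 1.52 to 2.95 CPM in WT and from 1.99 to 2.59 CPM in A5-KO at these times and overlapped at 2 and 3 h. *AMBP* was at 647 to 740.1 CPM in A5-KO and 597 to 651 CPM in WT, and A5-KO lay above WT at each time from 1 h on, the reverse of 0 h. *SERPINA1* was at 265 to 413 CPM in A5-KO and 291 to 327 CPM in WT. Its libraries overlapped at 1 and 2 h and lay below WT at 3 h. Both A5-KO libraries were above both WT libraries for 4, 3 and 3 of the 5 members at 1, 2 and 3 h, and for 32.5%, 19.8% and 20.5% of all genes. They were below for 0, 0 and 1 member, and for 23.5%, 37.6% and 45.5% of all genes. At 3 h the median difference of all genes was -0.12, which became 0.05 with quantile normalization, and there the *AMBP* difference went from 0.06 to -0.05.

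**Figure D2:**
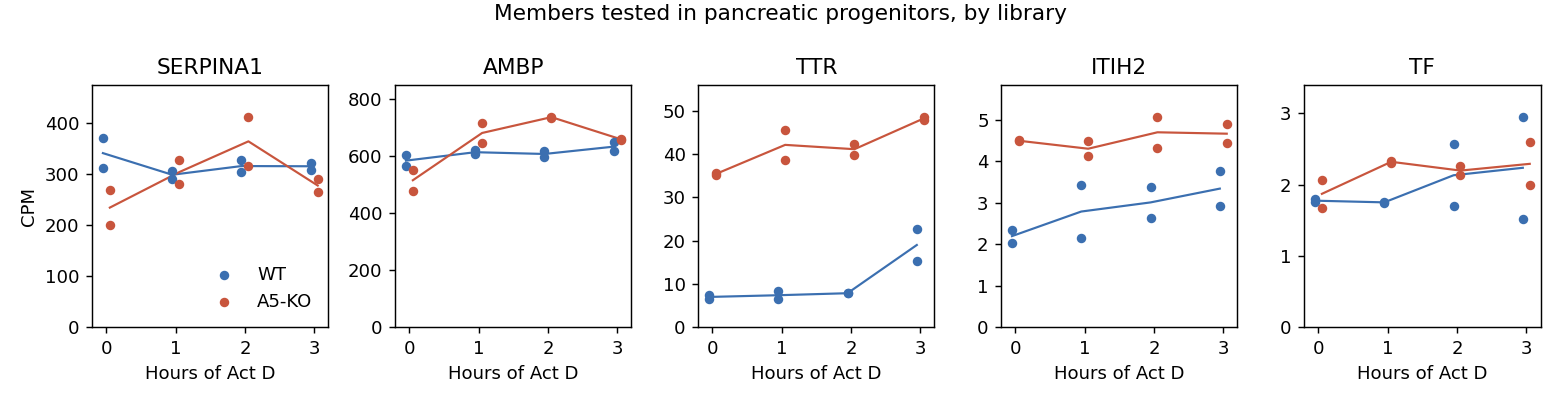
CPM of the 5 members tested in PPs against hours of Act D, each panel from 0 CPM, with 1 point per library (2 for each genotype and time) and lines through the means. The A5-KO points of *TTR* lie between 35.1 and 48.7 CPM and its WT points between 6.54 and 22.8 CPM, while the lines of *SERPINA1* and *AMBP* cross between 0 and 1 h.

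**Figure D3:**
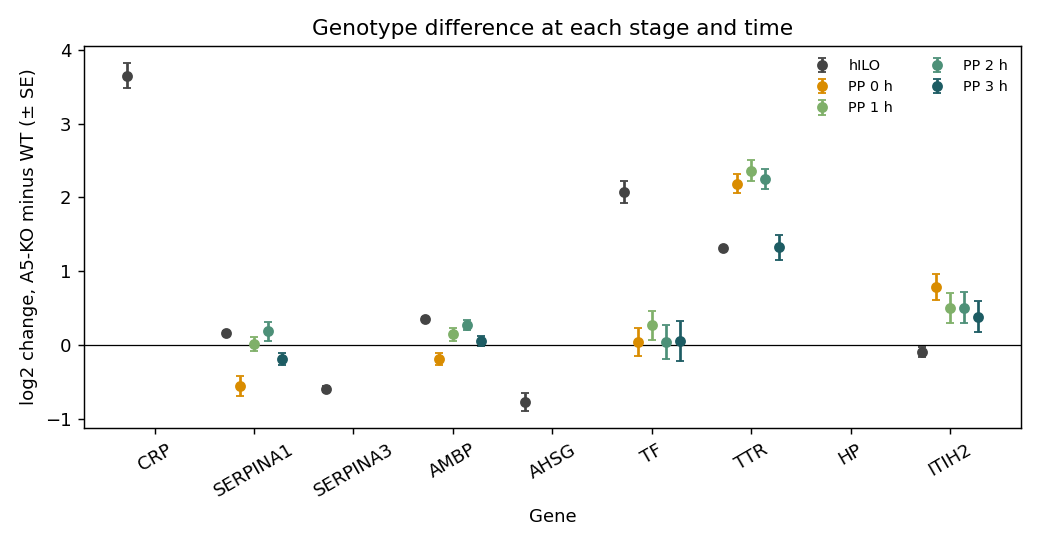
A5-KO minus WT difference of each member on the log2(value + 1) scale, with standard errors, in hILOs (TPM) and in PPs at 0 to 3 h (CPM); members below a mean of 1 at a stage have no point. *TTR* lies between 1.31 and 2.36 in all 5 comparisons, and *SERPINA1*, *AMBP* and *ITIH2* differ in sign between hILOs and PPs at 0 h.

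The slope of log2(CPM + 0.1) over the 4 times asks how the share of an mRNA in the library changes once transcription is blocked. A positive slope means that the share rose, and not that the mRNA was made. The 0 h libraries are the same that entered the differences above. In WT, *TTR* rose by 0.43 per h (standard error 0.09, limma adjusted *p* = 0.049), where 0.132% of 13620 genes rose and 0.11% fell. The slopes of the others were 0.19 for *ITIH2* (adjusted *p* = 0.35), 0.10 for *TF* (0.65), 0.03 for *AMBP* (0.73) and -0.02 for *SERPINA1* (0.89), and the median of all genes was -0.03. The *TTR* slope rested on 3 h: it was 0.07 per h over 0 and 1 h, 0.08 over 0 to 2 h and 0.67 over 1 to 3 h. Its adjusted *p* ran from 3.8e-06 to 0.77 over 28 alternatives, 9 of which kept the call, and the call was lost when any 1 library other than those of WT at 2 h was left out. Without WT 3 h replicate 2 the slope was 0.28. *AFP*, the fetal plasma carrier, moved alike, at 878 and 1032 CPM at 3 h against 551 to 670 CPM in the 6 earlier WT libraries, a slope of 0.23 per h (standard error 0.04, limma adjusted *p* = 0.012). Its call was kept in 22 of 28 alternatives and was lost, among others, without WT 0 h replicate 2 or WT 3 h replicate 1. All 8 tested hepatocyte markers had a positive slope in WT, with a median of 0.11, as did 37.1% of all genes. *ALKBH5* itself fell in WT over these hours, from 149 and 172 CPM at 0 h to 33.7 and 48.3 CPM at 3 h.

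In A5-KO PPs the share of *AMBP* rose by 0.12 per h (standard error 0.04, limma adjusted *p* = 0.021), where 7.44% of all genes rose and 37.1% fell. All 6 libraries of 1 to 3 h were above both 0 h libraries, and most of the rise came in the first hour, with a slope of 0.40 over 0 and 1 h and -0.02 over 1 to 3 h. The adjusted *p* ran from 0.00026 to 0.77 over 28 alternatives, 23 of which kept the call. Without A5-KO 0 h replicate 1 the slope was 0.06 and without replicate 2 it was 0.11, neither of them called. *TTR* had a slope of 0.13 (adjusted *p* = 0.24), *SERPINA1* of 0.10 (0.19), *TF* of 0.07 (0.55) and *ITIH2* of 0.03 (0.79), against a median of -0.08 over all genes. Median-of-ratios scaling moved that median to 0.02 and quantile normalization to 0.05. With the first, *TTR* (0.23, adjusted *p* = 0.024) and *SERPINA1* (0.20, adjusted *p* = 0.024) were called too, and 3188 genes rose and 3646 fell instead of 1013 and 5054. Of the 5 members, 0 fell in either genotype with limma, edgeR or DESeq2, also at an unadjusted *p* under 0.05.

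The slopes of A5-KO minus WT differed for none of the 5 members with limma, edgeR or DESeq2, and for 1 of them at an unadjusted *p* under 0.05. These differences are built from the WT against A5-KO values that chose the members, so their *p*-values are not independent of that choice. In the limma fit 0.0661% of all genes had a higher and 2.61% a lower slope in A5-KO. The difference was -0.30 for *TTR* (standard error 0.12, adjusted *p* = 0.16), -0.16 for *ITIH2* (0.11, 0.40), 0.13 for *SERPINA1* (0.09, 0.41), 0.09 for *AMBP* (0.06, 0.38) and -0.02 for *TF* (0.13, 0.95). For *TTR* it was 0.02 over 0 to 2 h and -0.57 over 1 to 3 h (adjusted *p* = 0.040), within a range of adjusted *p* from 0.014 to 0.93 over 28 alternatives.

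The liver-enriched transcription factors are set beside the members here as mRNAs of the factors that read plasma protein genes. Of 14 tested, 12 fell in A5-KO PPs during Act D and none rose, and the median slope of the 14 was -0.70, where that of the 5 members was 0.10. *FOXA1* fell by 1.22 per h (limma adjusted *p* = 7.5e-05) and *TBX3* fell by 1.06 per h (limma adjusted *p* = 6.0e-05). With median-of-ratios scaling, edgeR or DESeq2 12 of 14 fell as well and 0 rose, and with quantile normalization 12 fell and 1 rose. In WT 1 of 14 fell, *ONECUT1*, with a slope of -0.34 (limma adjusted *p* = 0.041), and 6 of 14 did at an unadjusted *p* under 0.05. Of 15 tested genes of the cytokine input (receptors, JAK kinases, STAT3 and C/EBP factors), 6 fell in A5-KO, a share near the 37.1% of all genes. In WT, over all times, 0 of the 15 fell with limma, edgeR or DESeq2 and 2 at an unadjusted *p* under 0.05, as did 1554 of all 13620 genes. These WT counts depended on the times used. Over 0 and 1 h *SOCS3*, *CEBPB*, *CEBPD*, *RELA* and *LIF* were called as falling in WT too, and so were *FOXA1* and *TBX3* of the liver-enriched factors. The count over all genes was also far higher in WT over 0 and 1 h, as given below. Among 11 other acute phase genes 3 rose and 0 fell in A5-KO, as 1 of 7 other carriers did.

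**Figure D4:**
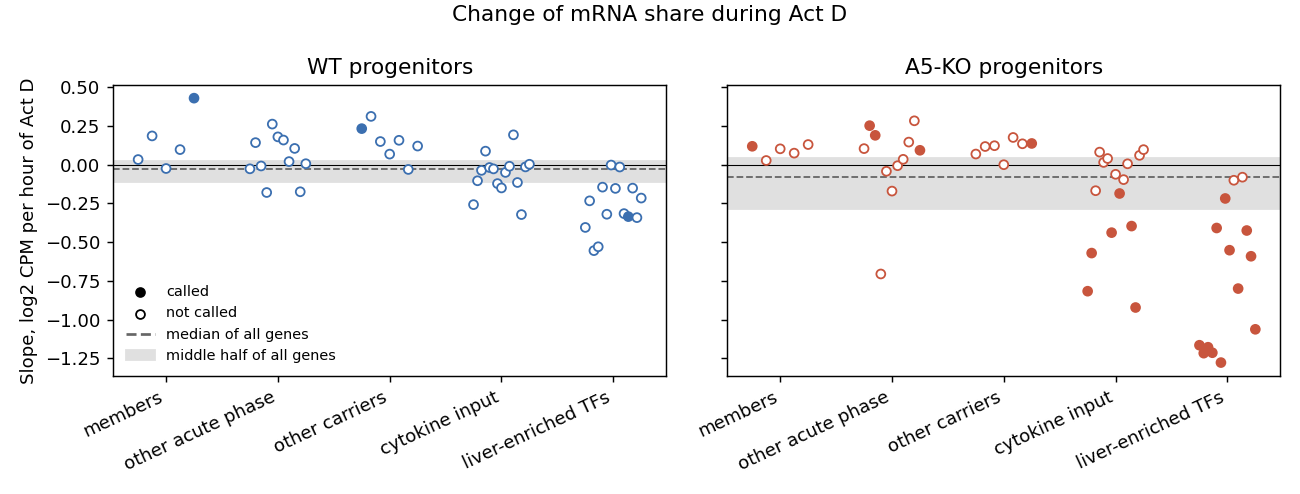
Slope of log2 CPM per hour of Act D in WT (left) and A5-KO PPs (right) for each tested gene of the members and of 4 lists, with filled points for genes called at a limma adjusted *p* under 0.05, a dashed line at the median and a band over the interquartile range of all 13620 genes. The 5 members lie between -0.02 and 0.43 in WT and between 0.03 and 0.13 in A5-KO, whereas the liver-enriched factors reach -1.28 in A5-KO.

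Other genes of plasma proteins were taken as lists written with earlier results of these data known. In hILOs 4 of 18 tested acute phase genes other than the members rose and 4 fell, with a median of 0.13. Hemopexin (*HPX*), which binds heme, rose from 5.20 ± 1.02 to 11.2 ± 0.54 TPM (mean ± s.d., *n* = 2), and the protease inhibitor alpha-2-macroglobulin (*A2M*) from 205 ± 3.90 to 569 ± 17.3 TPM. Ceruloplasmin (*CP*), the copper carrier, fell from 184 ± 5.18 to 49.6 ± 4.02 TPM, and the fibrinogen gamma chain (*FGG*) from 687 ± 38.1 to 328 ± 6.26 TPM. Their limma adjusted *p* values were 0.033, 0.0021, 0.0026 and 0.0035, and *HPX* was called in 5 of 11 alternative fits. So acute phase genes, like the members, went both ways.

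The other carriers went 1 way in hILOs, with 4 of 10 tested rising and 0 falling (7 and 0 at an unadjusted *p* under 0.05), and a median of 0.45. Albumin (*ALB*), the main plasma protein, rose from 932 ± 3.28 to 1880 ± 47.9 TPM (limma adjusted *p* = 0.0021), and the vitamin D carrier *GC* from 450 ± 215 to 1734 ± 59.0 TPM (limma adjusted *p* = 0.037). The cortisol carrier *SERPINA6*, a paralog of *SERPINA1*, rose from 22.7 ± 1.48 to 43.3 ± 0.68 TPM, and the phospholipid-binding *APOH* from 28.5 ± 1.45 to 51.4 ± 0.17 TPM. In PPs at 0 h 3 of 7 rose and 0 fell: *ALB* from 4.50 ± 0.0099 to 15.5 ± 1.5 CPM, *AFP* from 557 ± 8.58 to 1319 ± 34.6 CPM and *APOB*, the scaffold of lipoproteins, from 75.1 ± 0.39 to 116 ± 12.5 CPM. *ALB*, *AFP*, *APOB* and *APOH* are also on the hepatocyte marker list given above, as are *FGB* and *ASGR1*. In hILOs *ALB* was called in all 11 alternative fits and *GC* in 8, not when either A5-KO library was left out. *SERPINA6* and *APOH* were called in 6 of 11 each, not when any 1 of the 4 libraries was left out. In PPs *APOB* was called in 10 of 14, not with median-of-ratios scaling, edgeR or DESeq2 or without A5-KO replicate 1.

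The fibrinogen chains *FGB* and *FGA* rose in PPs at 0 h, where 3 of 12 tested acute phase genes rose and 0 fell (4 and 4 at an unadjusted *p* under 0.05). *FGB* rose from 3.82 ± 1.06 to 16.1 ± 1.16 CPM (limma adjusted *p* = 0.00063) and *FGA* from 3.83 ± 0.68 to 10.1 ± 2.98 CPM (limma adjusted *p* = 0.016). In hILOs *FGG*, another chain of the same cluster, fell. The call of *FGA* was lost without A5-KO replicate 1. The difference between the stages was not tested, since TPM and CPM come from separately normalized tables.

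Among paralogs and partners of the members, 3 of 9 rose and 1 fell in hILOs. *ITIH1*, the heavy chain that pairs with *ITIH2* around bikunin, rose from 33.2 ± 2.57 to 121 ± 0.52 TPM (limma adjusted *p* = 0.0026), whereas *ITIH2* was at a ratio of 0.94. The protein C inhibitor *SERPINA5* fell from 299 ± 7.40 to 183 ± 1.00 TPM in hILOs (limma adjusted *p* = 0.0041). It also fell from 433 ± 14.3 to 265 ± 2.89 CPM in PPs at 0 h (limma adjusted *p* = 0.00048), where 2 of 4 tested genes of this list fell and 0 rose (1 at an unadjusted *p* under 0.05). The other was the kallikrein inhibitor *SERPINA4*, which fell from 32.6 ± 2.81 to 21.4 ± 3.06 CPM (limma adjusted *p* = 0.040) and was called in 11 of 14 alternative fits, not without either WT library or A5-KO replicate 1.

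Of 7 tested receptor and uptake genes, 2 rose in hILOs and 0 fell (2 and 3 at an unadjusted *p* under 0.05), the risen ones being both subunits of the asialoglycoprotein receptor that clears desialylated plasma proteins. *ASGR1* rose from 9.71 ± 1.72 to 18.9 ± 0.65 TPM (limma adjusted *p* = 0.031). The calls of *ASGR1* and *ASGR2* held in 5 of 11 alternative fits each and were lost when any 1 of the 4 libraries was left out. In PPs at 0 h 1 of 7 rose. Of 14 tested genes of the cytokine input, 0 rose and 3 fell in hILOs (1 and 4 at an unadjusted *p* under 0.05). *SOCS3*, the feedback inhibitor induced by STAT3, fell from 11.0 ± 0.57 to 3.13 ± 0.38 TPM (limma adjusted *p* = 0.010), and *CEBPD*, a C/EBP factor of the acute phase response, from 61.7 ± 4.22 to 34.7 ± 0.32 TPM (limma adjusted *p* = 0.0097). Both were called in 6 of 11 alternative fits. Of 15 liver-enriched factors, 0 were called in hILOs with limma (4 higher and 4 lower at an unadjusted *p* under 0.05). In PPs at 0 h *FOXA1* and *TBX3* rose, from 17.4 ± 4.96 to 44.8 ± 6.59 CPM and from 20.5 ± 4.67 to 44.8 ± 9.30 CPM, and *ONECUT1* fell from 17.9 ± 1.18 to 6.28 ± 1.35 CPM.

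**Figure D5:**
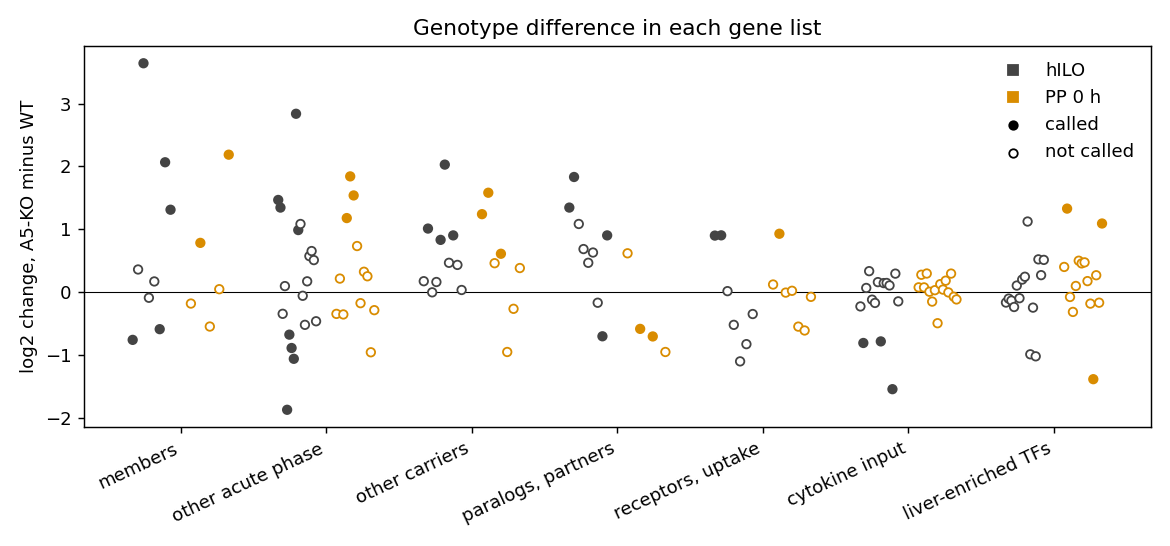
A5-KO minus WT difference on the log2(value + 1) scale for each tested gene of the members and of 6 lists, in hILOs (dark) and in PPs at 0 h (orange), with filled points for genes called by limma. In hILOs the called carriers all lie above 0, whereas called members and called acute phase genes lie on both sides.

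The mRNAs whose pattern over the 16 PP libraries was most like the mean of the 5 tested members were *BCAP31* (Pearson *r* = 0.96), *UPK1B* (0.95), *SPARC* (0.94), *CTSH* (0.93) and *S100A6* (0.93), out of 8917 genes that averaged 10 CPM or more. The members themselves correlated with their own mean at 0.82 for *AMBP*, 0.74 for *TTR*, 0.66 for *ITIH2*, 0.59 for *TF* and 0.36 for *SERPINA1*, so the 5 did not move as 1 group. These values describe libraries that share genotype, time of Act D and a fixed total, and they carry no *p*.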

How the data were processed

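The analysis covered 4 hILO and 16 PP RNA-seq libraries, grouped by the sample labels. For hILOs the authors trimmed reads with fastp, aligned them to GRCh38 (hg38) with HISAT2 2.1.0, quantified transcripts with StringTie and deposited TPM. For PPs the authors deposited CPM after removing ERCC spike-ins, and the read counter is not given in the sources used here. All CPM values were whole multiples of 1 read (tolerance 0.1), each read worth 0.0284 to 0.0328 CPM.

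Genotypes were compared with limma 3.58.1 (R 4.3.3, eBayes with trend) on log2(value + 1) over genes averaging 1 or more, and Act D slopes on log2(CPM + 0.1) with 1 slope per genotype, with Benjamini-Hochberg adjustment over all genes tested. edgeR 4.0.16 and DESeq2 1.42.0 on recovered reads were alternatives, with other pseudocounts, filters, scalings, time points, a replicate block and each library left out. Coordinates, lengths and overlaps came from GENCODE annotation of GRCh38, and promoters from RefSeq.

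All members, *ALKBH5*, overlapping or near-identical neighbours and the 5 genes most like the members were named. In each list at most 4 called genes with the largest change in hILOs or in PPs at 0 h that averaged 10 or more in 1 genotype were named. The members and lists were chosen with earlier results of these data known. *CFB* was chosen after its values were seen. In simulated data, changes of 2 on the log2 scale were recovered for 85 of 100 genes in hILOs and 93 of 100 in PPs at 0 h, changes of 1 for 56 and 84 of 100, and slope differences of 0.5 for 98 of 100. In the real libraries 0 of 4 tested progenitor markers were called for the difference of slopes, at a median of -0.67. The simulated recovery of slope differences therefore cannot be carried over to the real libraries.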

Additional observations from a re-analysis of the deposited data

Results flagged for a closer look

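For 3 members both A5-KO libraries lay on 1 side of WT in some comparisons and on the other side in others, and these differences between stages or times were not tested as such. *SERPINA1* had a log2 difference of 0.17 in hILOs but -0.55 in PPs at 0 h and -0.18 in PPs at 3 h. *AMBP* was at 0.36 in hILOs and -0.18 in PPs at 0 h, and at 0.15, 0.28 and 0.059 in PPs at 1, 2 and 3 h. *ITIH2* was at -0.091 in hILOs and at 0.78, 0.51, 0.51 and 0.39 in PPs at 0, 1, 2 and 3 h. Its hILO value was near the all-gene median of -0.06, and it was -0.03 with median-of-ratios scaling. hILO and PP values come from separately normalized tables in different units.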

How the results depend on the processing

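With 2 libraries per group, the counts of called genes, and with them the background shares, depended on single libraries and on the filter more than the direction of the members did. In the genotype comparisons no called member changed sign under any of the alternatives run, and of those not called *AMBP* did so at 3 h, *SERPINA1* at 1 and 2 h and *TF* at 0, 2 and 3 h. The count of called genes in hILOs was 1174, 161 without a filter and 674 with the replicate block. In PPs at 0 h it was 375, 705 without a filter and 631 with the block; at 1 h 593 and 959 without a filter. At 2 h it was 179, 1149 without a filter, 356 with median-of-ratios scaling, 333 with quantile normalization, 628 with the block, 964 with all 16 PP libraries in one fit, 334 with edgeR and 659 with DESeq2. Leaving out 1 library gave 143 to 289 genes in hILOs, 237 to 440, 462 to 1191, 31 to 2506 and 1387 to 2997 in PPs at 0, 1, 2 and 3 h, where the count was 2378 at 3 h. The causes were not tested.

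For slopes in WT the count was 33, and 2 without a filter, 51 with quantile normalization, 17 with the block, 107 with DESeq2, 2414 over 0 and 3 h, 3760 over 0 and 1 h, 17 over 1 to 3 h and 3146 over 0 to 2 h, the last an alternative chosen after seeing the data. In A5-KO it was 6067, and 2799 over 1 to 3 h. For the difference of slopes it was 364, and 173 at pseudocount 1, 0 without a filter (3714 at an unadjusted *p* under 0.05), 109 with median-of-ratios scaling, 25 with quantile normalization, 3028 over 0 and 3 h, 54 over 0 and 1 h, 1727 over 1 to 3 h, 16 over 0 to 2 h, 0 with the block (2912 at an unadjusted *p* under 0.05) and 870 with DESeq2. Leaving out 1 library gave 0 to 36 genes in WT, 4279 to 6395 in A5-KO and 0 to 1504 for the difference.

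Another scaling moved the split of higher and lower calls in 4 comparisons. In PPs at 1 h it was 432 higher and 161 lower, and 363 and 222 with quantile normalization. At 3 h it was 144 and 2234, 679 and 1173 with quantile normalization and 356 and 1786 with edgeR. For slopes in WT 18 rose and 15 fell, 42 and 9 with quantile normalization and 28 and 12 with median-of-ratios scaling or edgeR. In A5-KO 1013 rose and 5054 fell, and 3960 and 2944 with quantile normalization.

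Slopes of members that were not called changed sign in places. In WT *SERPINA1* was at 0.0053 with median-of-ratios scaling, 0.039 over 1 to 3 h, 0.0017 with edgeR and with DESeq2, and -0.039 to 0.020 without 1 library; *TF* was at -0.018 over 0 and 1 h and -0.0049 to 0.21 without 1 library. In A5-KO over 1 to 3 h *SERPINA1* was at -0.064, *AMBP* at -0.023 and *TF* at -0.014, and *ITIH2* was at -0.063 over 0 and 1 h. For the difference of slopes over 1 to 3 h *SERPINA1* was at -0.10 and *AMBP* at -0.045, and *ITIH2* was at 0.035 with quantile normalization. The difference of *TTR* was 0.17 over 0 and 1 h and 0.024 over 0 to 2 h. That of *TF* was 0.044 with median-of-ratios scaling, 0.13 with quantile normalization, 0.0098 over 0 and 3 h, 0.32 over 0 and 1 h, 0.0025 over 0 to 2 h, 0.016 with edgeR and with DESeq2, and -0.13 to 0.080 without 1 library.

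The deviations of libraries with the same replicate number in both genotypes correlated at -0.0053 in hILOs. In PPs, in order of time, they correlated at 0.17, -0.016, -0.065 and -0.013. Such a correlation over genes cannot decide whether same-numbered libraries are paired, since it does not show whether they shared a differentiation. With the replicate block *TTR* in WT kept its slope of 0.43 but not its call (adjusted *p* = 0.075). TPM keeps no depth, and members under 1 CPM could not be compared in PPs.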
